A study of Arabidopsis thaliana with 8 samples.

Results

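Transcript levels of 3 Arabidopsis thaliana genes of starch and sucrose metabolism, PWD (AT5G26570), DPE1 (AT5G64860) and ATSPS4F (AT4G10120), were followed through cold treatment. They were taken by locus, each with its own probe set, and are 3 of the 22746 probe sets left once the array's controls are set aside. All 3 lay above the filter on low signals and were among the 14756 tested.

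Leaves store part of the carbon they fix as starch in the chloroplast and release it later as maltose and glucose, from which the cytosol makes sucrose. Breakdown starts when dikinases put phosphate groups on the granule surface, which loosens the packed glucan chains for amylases. Arabidopsis leaves are known to accumulate sucrose and other soluble sugars during cold acclimation. PWD, the phosphoglucan water dikinase, phosphorylates glucan that the dikinase GWD1 has already phosphorylated. DPE1 is the disproportionating enzyme of the plastid, which joins short maltodextrins left by the amylases and frees glucose. ATSPS4F is a sucrose-phosphate synthase, the enzyme that makes sucrose phosphate in the cytosol.

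The plants were soil-grown Col-0, a common laboratory accession, and the whole above-ground part was harvested. All groups had 4 d of stratification and 10 d at 22 °C under constant illumination of 100 µmol m⁻² s⁻¹, and the labels give 18 d as the age of every group. The control plants (0 h) were harvested under those conditions, and the other flats were harvested after 1 h, 24 h or 7 d at 4 °C with constant light dimmed to about 25 µmol m⁻² s⁻¹. Low temperature and dimmer light therefore came together and cannot be told apart, and warm plants harvested at the later times were not analysed here. The age label does not follow from these growth times, by which the 7 d plants were older at harvest than the control plants. Plant age and time at 4 °C cannot be told apart either. Each time has 2 ATH1 arrays, 8 in all, and the labels do not say whether replicates were separate plantings, so p-values measure the spread between these arrays, which may be technical.

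Signals are MAS5 intensities, scaled by array, and levels of different probe sets are not compared. Median signals of the arrays ranged from 32.8 to 37.7. The cold marker COR15A, whose protein protects chloroplast membranes, had signals of 4293 to 6316 at 24 h and 7 d, against 289 and 472 in the control. At 1 h it read 396 and 211 and did not pass (log2 -0.35 ± 0.29 SE, limma adjusted p = 0.939). The leaf gene RCA, for Rubisco activase, was the only leaf marker of 10 listed that the annotation named. It read 3482 and 3404 at 7 d, against 5935 and 5056 in the control, and was lower at 7 d (log2 -0.67 ± 0.10 SE, limma adjusted p = 0.00385). Of 6 root markers 4 were named. AT5G17820, AT3G01190 and EXPA7 did not exceed 15.01 on any array. PYK10, a root-enriched beta-glucosidase, was at 15.6 and 18.9 at 7 d, against 152 and 130 in the control, and fell by 2.66 on the log2 scale (limma adjusted p = 9.96e-05); its part in the results at 7 d was not tested. In whole shoots, fewer cells of a type and less RNA per cell cannot be told apart.

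PWD signal was 506 and 257 in the control, 438 and 206 at 1 h, 391 and 304 at 24 h, and 607 and 578 at 7 d, with replicate 1 given before replicate 2. Both 7 d arrays were above all 6 earlier ones, while the control, 1 h and 24 h arrays overlapped. The share of all probe sets with 7 d arrays clear of all 6 earlier ones was not counted. The 7 d mean was 592 ± 20.3 (SD, n = 2), against 381 ± 176 in the control (n = 2). On the scale of log2(signal + 6.07) the difference was 0.71 ± 0.37 (SE), or 1.63-fold, with a 95% interval from -0.14 to 1.55. It did not pass (limma adjusted p = 0.233), but did with replicate number as a block (adjusted p = 0.0482). Adjusted p-values here come from limma fitted over all 14756 probe sets, and the threshold is 0.05. Between 7 d and 24 h the log2 difference was 0.77 ± 0.37 (adjusted p = 0.220, or 0.0428 with the block). At 1 h the log2 change from control was -0.26 ± 0.37 (adjusted p = 0.961). That at 24 h was -0.06 ± 0.37 (adjusted p = 0.917), and it stood at 0.028 when arrays were centred on their medians. Between 24 h and 1 h it was 0.19 ± 0.37 (adjusted p = 0.738).

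DPE1 had its lowest mean at 24 h. Its signals were 218 and 121 in the control, 211 and 90.7 at 1 h, 119 and 69.1 at 24 h, and 157 and 146 at 7 d, again with replicate 1 first. The higher 24 h array, at 119.0, was just under the lower control array, at 120.9. That 24 h array was above the lower 1 h array, at 90.7, so the 24 h and 1 h arrays overlapped. At 7 d both arrays lay between the control arrays. The 24 h mean was 94.0 ± 35.3 (SD, n = 2), against 169 ± 68.7 in the control. On the log2 scale the change was -0.80 ± 0.40 (SE), or 1.74-fold lower, with a 95% interval from -1.72 to 0.12. It did not pass (limma adjusted p = 0.177), but did with the replicate block (adjusted p = 0.0207). Between 24 h and 1 h the difference was -0.58 ± 0.40 (adjusted p = 0.320). The 7 d level was 1.62-fold above the 24 h level (0.70 ± 0.40, adjusted p = 0.304), and its log2 difference from control was -0.10 ± 0.40 (adjusted p = 0.893). At 1 h the log2 change was -0.22 ± 0.40 (adjusted p = 0.976).

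ATSPS4F was lowest at 7 d. Its signals were 366 and 263 in the control, 336 and 248 at 1 h, 322 and 221 at 24 h, and 179 and 180 at 7 d. The 7 d arrays differed by under 2 signal units, and both were below all 6 earlier arrays, which overlapped among themselves. As for PWD, the share of all probe sets with such a pattern was not counted. The 7 d mean was 179.6 ± 0.93 (SD, n = 2), against 315 ± 73.0 in the control. On the log2 scale the change was -0.77 ± 0.23 (SE), or 1.705-fold lower, with a 95% interval from -1.29 to -0.25. Its unadjusted limma p was 0.00895, and the adjusted p stood just beyond the threshold (0.0541). It fell below the threshold in 5 of 17 alternative settings and stayed above it in the others. The 5 were the replicate block (limma adjusted p = 0.00714), quantile normalization (0.0452), arrays centred on their medians (0.0466), a stricter filter on low signals (0.0489) and the fit without 24 h replicate 2. Without control replicate 1 the log2 change was -0.54. The 7 d level was also 1.47-fold below the 24 h level (-0.55 ± 0.23, adjusted p = 0.163, or 0.0349 with the block). At 24 h the log2 change from control was -0.21 ± 0.23 (adjusted p = 0.526), and at 1 h it was -0.10 ± 0.23 (adjusted p = 0.981). Between 24 h and 1 h it was -0.11 ± 0.23 (adjusted p = 0.753).

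**Figure D1:**
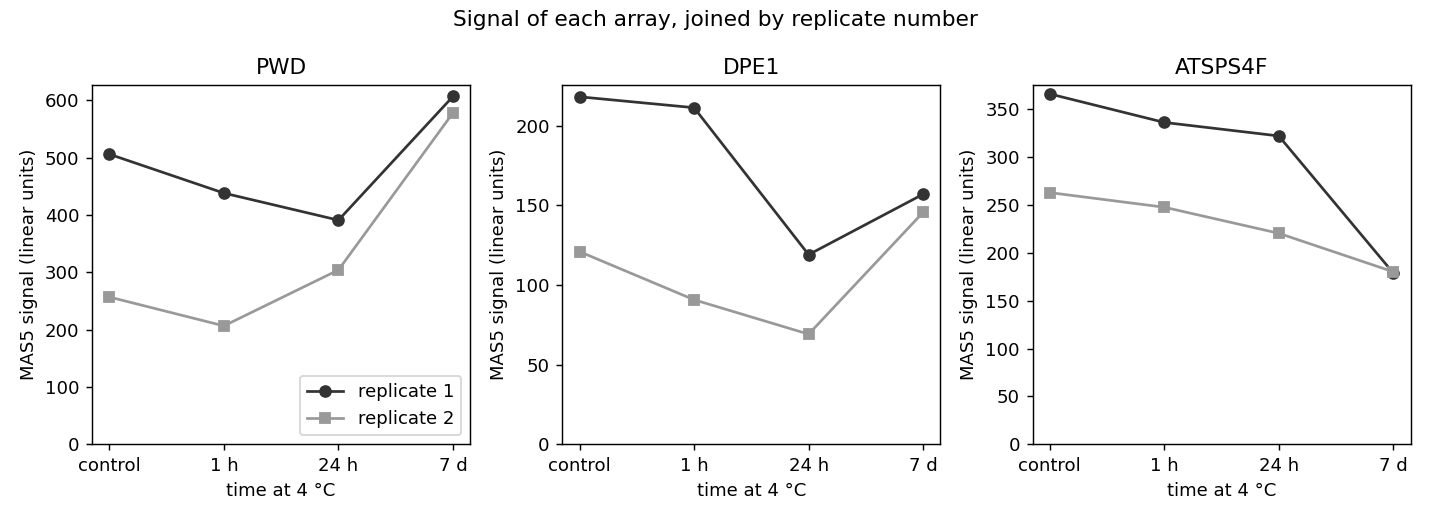
MAS5 signal (linear units, axis from 0) of PWD, DPE1 and ATSPS4F on each of the 8 arrays against time at 4 °C, with lines joining arrays of the same replicate number. PWD ends at 607 and 578 at 7 d, DPE1 dips to 119 and 69.1 at 24 h, ATSPS4F ends at 179 and 180, and at the first 3 times replicate 1 lies above replicate 2 for each gene.

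Counted over the 3 genes, limma without the replicate block called 0 of 3 in every comparison; with the block it was 1 of 3 at 24 h (33.7% of all probe sets) and 2 of 3 at 7 d (22.3%) against control, and 2 of 3 for 7 d against 24 h (16.8%). Without the block the background shares were 0.908% of all tested probe sets at 1 h, 26.2% at 24 h and 15.9% at 7 d against control, 26.5% for 24 h against 1 h and 8.53% for 7 d against 24 h. At an unadjusted p under 0.05, 1 of 3 (ATSPS4F) met the threshold for 7 d against control and for 7 d against 24 h, as 31.2% and 27.0% of all probe sets did. It was 0 of 3 at 1 h (6.70% of all) and 24 h (39.3%) against control, and for 24 h against 1 h (38.9%). The F test over the 4 times, which 29.9% of probe sets passed, gave adjusted p = 0.209 for PWD, 0.369 for DPE1 and 0.0907 for ATSPS4F. Arrays of the times compared did not overlap for PWD and ATSPS4F at 7 d against control, where 59.0% of all probe sets had no overlap. For 24 h against control this held for DPE1 alone (65.8% of all), and for 7 d against 24 h it held for all 3 genes (55.9% of all).

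The spread between the arrays of a time was wide for PWD and DPE1 before 7 d, and narrow for all 3 genes at 7 d. PWD replicate 1 stood 1.97-fold above replicate 2 in the control, 2.12-fold at 1 h, 1.29-fold at 24 h and 1.05-fold at 7 d. For DPE1 the same ratio was 1.80, 2.33, 1.72 and 1.08, and for ATSPS4F it was 1.39, 1.36, 1.46 and 0.99. The replicate gap was thus in 1 direction at the control, 1 h and 24 h for each gene, and close to none at 7 d. The control gap of PWD was wider than that of 97.4% of tested probe sets, that of DPE1 wider than 95.8% and that of ATSPS4F wider than 84.1%. At 1 h these shares were 98.6%, 98.9% and 82.9%, at 24 h 75.1%, 94.2% and 88.0%, and at 7 d 18.1%, 27.0% and 2.74%. Replicate 1 was the higher array at all of control, 1 h and 24 h for 2795 probe sets (18.9%), and by at least 0.36 on the log2 scale, the smallest gap of the 3 genes, for 146 (0.989%). The residual SD over all times was 0.52 for PWD, 0.57 for DPE1 and 0.29 for ATSPS4F on the log2 scale, against a median of 0.19 over all tested probe sets.

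**Figure D2:**
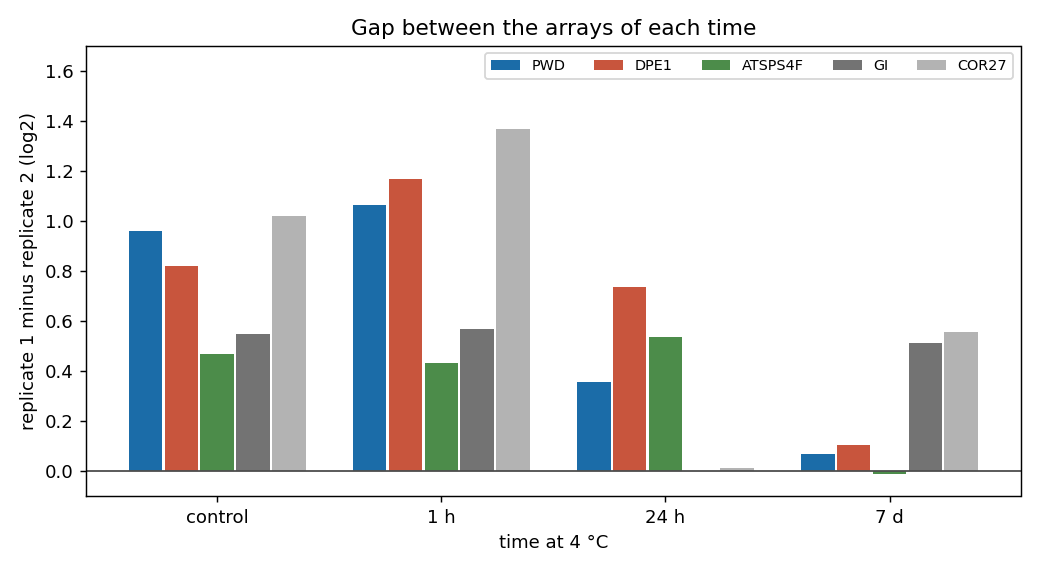
Replicate 1 minus replicate 2 on the log2(signal + 6.07) scale at each time for PWD, DPE1, ATSPS4F and the clock-linked genes GI and COR27. The gaps of PWD and DPE1 are 0.96 and 0.82 in the control and 0.07 and 0.10 at 7 d, and those of GI and COR27 are close to 0 at 24 h.

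When replicate number entered the fit as a block, 2 of the 3 genes passed for 7 d against control, where the share called of all probe sets was 22.3%. PWD was higher (0.71 ± 0.22 SE, limma adjusted p = 0.0482) and ATSPS4F lower (-0.77 ± 0.15, adjusted p = 0.00714). DPE1 passed as lower at 24 h against control in that fit (-0.80 ± 0.22, adjusted p = 0.0207; 33.7% of all called). For 7 d against 24 h, PWD was higher (adjusted p = 0.0428) and ATSPS4F lower (adjusted p = 0.0349), with 16.8% of all called, while DPE1 stood at adjusted p = 0.0576. The blocked F test gave adjusted p = 0.0262 for PWD, 0.0504 for DPE1 and 0.0111 for ATSPS4F, with 40.9% of all called. The block fits 1 gap common to all times, whereas the measured gaps of the 3 genes were much smaller at 7 d than before.

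**Figure D3:**
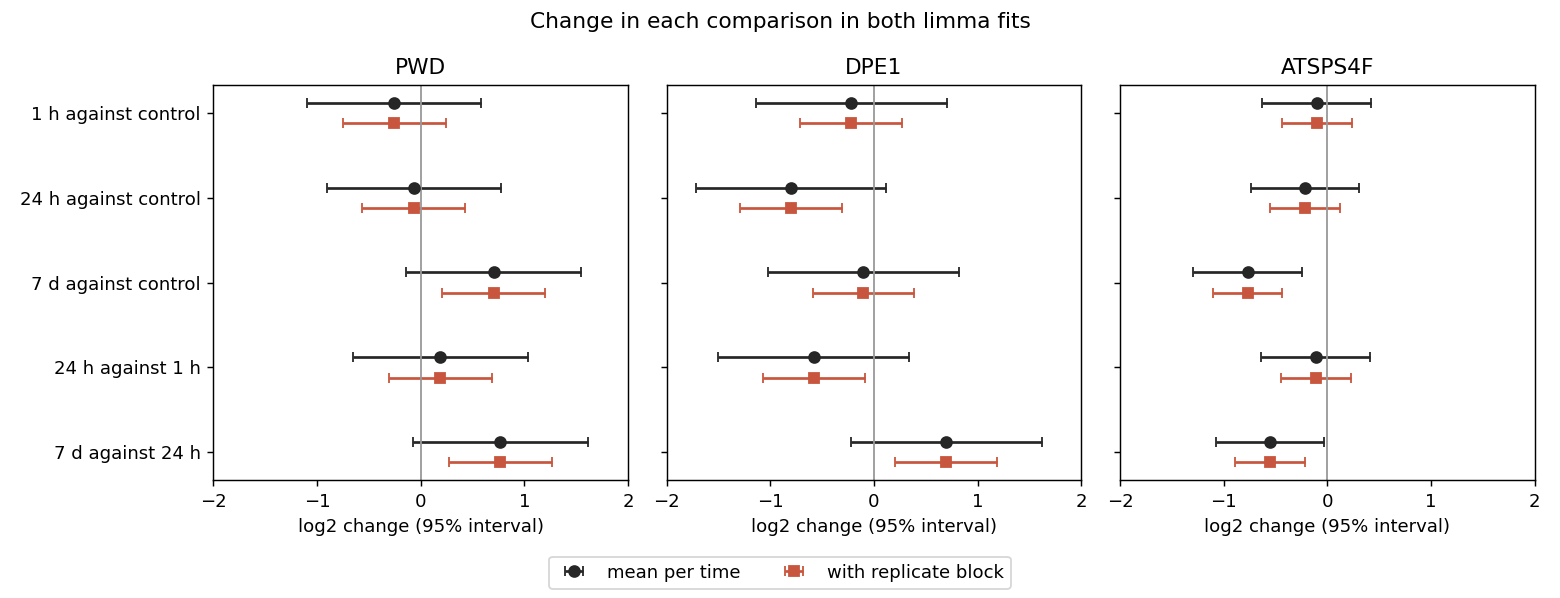
Log2 change of PWD, DPE1 and ATSPS4F in 5 comparisons, with 95% intervals, from the limma fit with a mean per time (circles) and from the blocked fit (squares). The estimates are identical and the blocked intervals narrower, so that for PWD at 7 d against control the interval runs from 0.21 to 1.20 in place of -0.14 to 1.55.

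The clock gene GI and the cold- and clock-regulated gene COR27, picked after their values had been seen, also differed between replicates in the early samples. COR27 replicate 1 stood 2.202-fold above replicate 2 in the control and 2.74-fold at 1 h, but 1.01-fold at 24 h and 1.48-fold at 7 d. For GI the ratio was 1.51 in the control, 1.52 at 1 h, 1.00 at 24 h and 1.43 at 7 d. Replicate 1 of both genes was thus the higher array in the control and at 1 h, as for PWD, DPE1 and ATSPS4F. At 24 h their replicates were nearly equal, unlike in the 3 genes. At 7 d replicate 1 of GI and COR27 was again the higher. The 7 d ratios of PWD (1.05) and DPE1 (1.08) were above 1 by less, and that of ATSPS4F was 0.99. RNA integrity was read from the GAPDH control probes, as 3' over 5' signal. Replicates 1 and 2 had 1.24 and 1.26 in the control, and 1.455 and 1.459 at 1 h, so they differed little there. It was 1.34 and 1.18 at 24 h, and 1.36 and 1.17 at 7 d. The part of harvest time or RNA integrity in the replicate gaps was not tested.

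By the fixed rule, the genes most like each of the 3 in pattern were the 3 of 8044 other tested, named probe sets with the highest Pearson r over the 8 arrays, which share the replicate gaps just described. These genes were picked on the same arrays, so the direction of their changes below follows from that choice and lends no separate support. PWD was most like SCPL49, a serine carboxypeptidase-like gene (r = 0.98), CHL, for the chloroplast lipocalin (r = 0.97), and ALDH6B2, an aldehyde dehydrogenase (r = 0.96). SCPL49 had signals of 797 and 826 at 7 d, against 630 and 441 in the control, a log2 change of 0.62 ± 0.27. It did not pass (limma adjusted p = 0.158), but did with the replicate block (adjusted p = 0.0432). CHL (0.31 ± 0.25, limma adjusted p = 0.437) and ALDH6B2 (0.31 ± 0.21, adjusted p = 0.347) did not pass at 7 d against control, with or without the block. DPE1 was most like AT5G20060 (r = 0.98), AT5G03900 (r = 0.97) and PORB, for a protochlorophyllide oxidoreductase of chlorophyll synthesis (r = 0.96). PORB read 1881 and 1583 at 24 h, against 3122 and 2000 in the control, a log2 change of -0.53 ± 0.23. It did not pass (limma adjusted p = 0.124), but did with the replicate block (adjusted p = 0.0103). AT5G20060 (-0.15 ± 0.14, limma adjusted p = 0.460) and AT5G03900 (-0.18 ± 0.13, adjusted p = 0.362) did not pass at 24 h against control, with or without the block. ATSPS4F was most like the plastid-encoded psbI, for a small subunit of photosystem II (r = 0.97), AT3G47070 (r = 0.97) and AT1G50620 (r = 0.96). AT3G47070 had 1143 and 1055 at 7 d, against 1881 and 1562 in the control, a log2 change of -0.64 ± 0.14 (limma adjusted p = 0.0204). The 7 d change of psbI was -0.79 ± 0.24 (limma adjusted p = 0.0555, or 0.0124 with the block). That of AT1G50620 was -0.65 ± 0.22 (limma adjusted p = 0.0749, or 0.0534 with the block). Among themselves the 3 genes had lower r, as nearly any pair would beside genes picked for the highest r. PWD and DPE1 had r = 0.68, DPE1 and ATSPS4F 0.39, and PWD and ATSPS4F -0.16. Of the 8044, DPE1 ranked 392 for PWD, and PWD ranked 557 for DPE1. ATSPS4F ranked 2277 for DPE1 and 5550 for PWD.

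The wider pathway was read from 81 listed genes of starch and sucrose metabolism, of which the annotation named 15 and 14 were tested, PWD, DPE1 and ATSPS4F among them. Of the 11 others, 0 passed at 1 h by limma (0.908% of all probe sets), and 0 of 11 had an unadjusted p under 0.05 (6.70% of all). At 24 h 1 of 11 was higher (11.1% of all probe sets) and 1 lower (15.1% of all). Of all calls at 24 h 42.3% were higher, and 54.5% when arrays were centred on their medians. At 7 d 2 of 11 were higher (7.33% of all) and 2 lower (8.54% of all). The median log2 change of the 11 was -0.16 at 1 h, -0.14 at 24 h and 0.21 at 7 d, against -0.04, -0.10 and -0.00 over all tested probe sets. With the replicate block 3 of 11 passed at 24 h (33.7% of all probe sets) and 5 of 11 at 7 d (22.3% of all). Between 7 d and 24 h 0 of 11 passed by limma (8.53% of all), with 3 of 11 at an unadjusted p under 0.05 (27.0% of all). The same number, 3 of 11, passed with the block (16.8% of all): APL3 (adjusted p = 0.0085) and TMT1 (0.0190) as higher and SBE2.2 (0.0365) as lower. Between 24 h and 1 h 3 of 11 passed (26.5% of all), 2 higher and 1 lower. With the block it was 4 of 11 (33.3% of all), SBE2.2 being the addition as lower (adjusted p = 0.0432, against 0.0586 without the block).

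Among the carriers, TMT2 was the clearest rise. It encodes a tonoplast monosaccharide transporter, which loads sugars into the vacuole. TMT2 signals were 293 and 353 at 24 h and 356 and 286 at 7 d, against 113 and 116 in the control. All 4 of these cold arrays were above the control arrays. Of all tested probe sets, 65.8% had no overlap with control at 24 h and 59.0% at 7 d. The rise was 2.73-fold at 24 h (log2 1.45 ± 0.21, limma adjusted p = 0.00178) and 2.70-fold at 7 d (1.43 ± 0.21, adjusted p = 0.00367). Its relative TMT1 did not pass, with log2 changes of -0.47 ± 0.22 at 24 h (adjusted p = 0.146) and 0.21 ± 0.22 at 7 d (adjusted p = 0.554). At 24 h TMT1 read 209 and 211, against 350 and 245 in the control, and with the replicate block it passed as lower (adjusted p = 0.0434).

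The largest fall in the list was that of AT1G62660, placed by its locus among the genes of sucrose breakdown and named by its tag alone. Its signals were 29.0 and 21.1 at 24 h and 14.4 and 19.4 at 7 d, against 88.4 and 111 in the control. The cold arrays of 24 h and 7 d were all far below the control arrays (no overlap in 65.8% and 59.0% of all probe sets). The change was -1.77 ± 0.21 on the log2 scale at 24 h (limma adjusted p = 0.000762) and -2.204 ± 0.21 at 7 d (adjusted p = 0.000535). It was the only tested gene of the 15 listed for sucrose breakdown.

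Of 4 tested genes of starch synthesis, SBE2.2, a starch branching enzyme, passed at 7 d. It had 113 and 134 at 7 d, against 272 and 257 in the control, 2.09-fold lower (log2 -1.07 ± 0.17, limma adjusted p = 0.00608). At 24 h its change was -0.44 ± 0.17 (adjusted p = 0.0924). APL3 and APL4 encode large subunits of ADP-glucose pyrophosphorylase, the enzyme that makes the substrate of starch synthases. APL3 read 90.9 and 133 at 7 d, against 55.9 and 79.6 in the control (0.67 ± 0.32, adjusted p = 0.198), and with the replicate block it passed as higher (adjusted p = 0.0289). APL4 stood at 0.59 ± 0.31 at 7 d (adjusted p = 0.229) and AT5G39790 at -0.67 ± 0.26 (adjusted p = 0.120). In starch breakdown the only other tested gene was AMY1, an alpha-amylase, with log2 changes of -0.62, 0.18 and -0.11 at 1 h, 24 h and 7 d, and it did not pass.

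Of the other sucrose synthesis genes, AT2G35840 passed at 7 d. It had 456 and 440 at 7 d, against 315 and 285 in the control, 1.48-fold higher (log2 0.57 ± 0.12, limma adjusted p = 0.0172). The call ended without any 1 of the control or 7 d arrays (adjusted p from 0.0534 to 0.0875) and with those times alone (0.0515). AT2G35840 and ATSPS4F, both listed for sucrose synthesis, thus had log2 changes of opposite sign at 7 d. F2KP, the bifunctional enzyme that makes and removes a regulatory fructose bisphosphate, stood at 0.29 ± 0.19 at 7 d (adjusted p = 0.350), and AT5G42740 at -0.14 ± 0.11 (adjusted p = 0.456). The remaining named gene, AT3G54270, had signals of 16.1 or less on all arrays and lay below the filter.

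**Figure D4:**
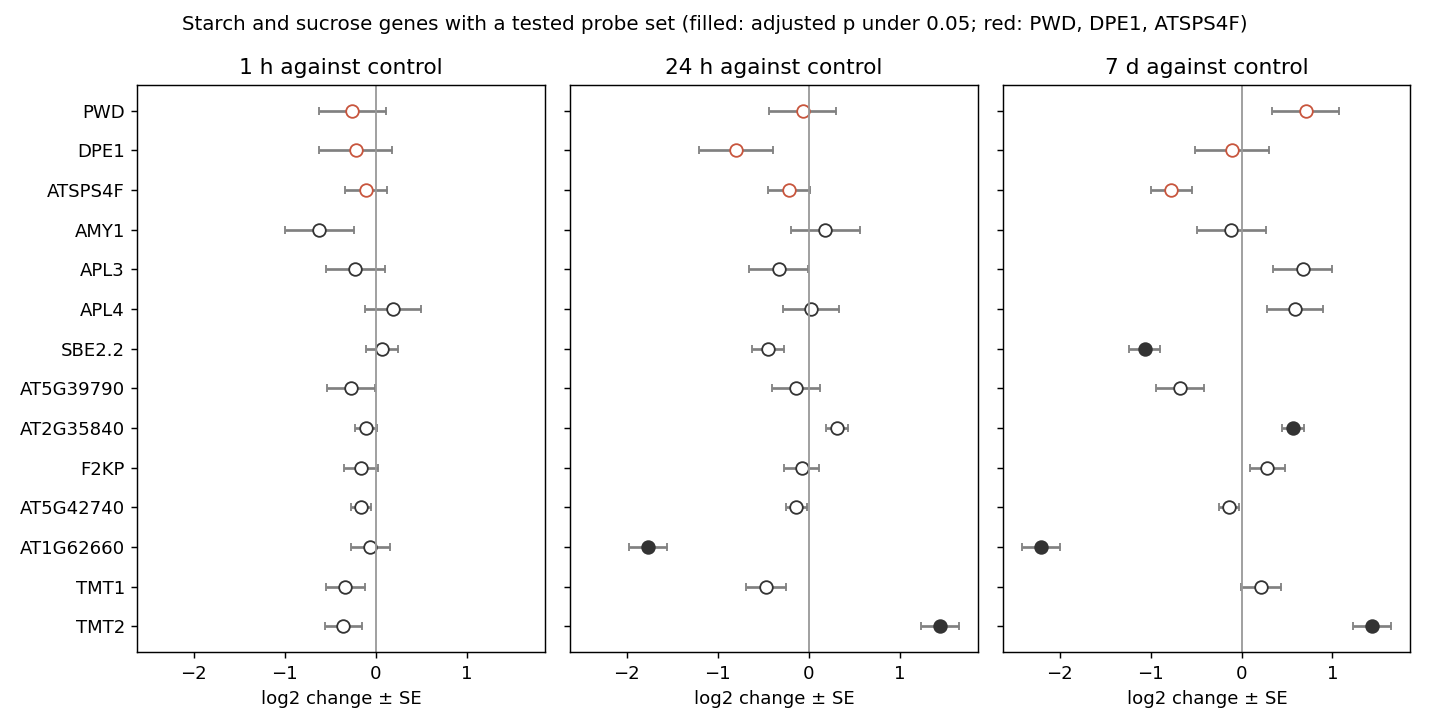
Log2 change from control, ± SE, of the 14 tested genes of the starch and sucrose lists at 1 h, 24 h and 7 d, with filled points for an adjusted p under 0.05. PWD, DPE1 and ATSPS4F, in red, are open at every time, while TMT2 and AT1G62660 are filled at 24 h and 7 d, and SBE2.2 and AT2G35840 at 7 d.

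Close relatives of the 3 genes could be followed in a single case. The annotation gives the symbol PWD to another probe set, that of AT4G24450, which RefSeq also lists as ATGWD2. Its signals were 35.4 and 36.5 in the control, 27.0 and 17.3 at 1 h, 30.2 and 27.2 at 24 h, and 34.3 and 34.4 at 7 d. It did not pass at 1 h (-0.60 ± 0.22, limma adjusted p = 0.602), 24 h (-0.27 ± 0.22, adjusted p = 0.398) or 7 d (-0.06 ± 0.22, adjusted p = 0.894). GWD1, DPE2 and the other sucrose-phosphate synthases SPS1F, SPS2F and SPS3F had no probe set named for them in the annotation used and were not analysed here.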

How the data were processed

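The authors deposited linear intensities made with MAS5, per the submitters' processing notes (no MAS5 version is given there); the trimmed mean, with 2% removed at each end, was 100.01 on every array. Of 22810 probe sets, 64 controls were left out. Genes were named by GEO's platform annotation (13513 probe sets with 1 gene) and RefSeq TAIR10.1. The files name no genome build, so no coordinates are given.

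Intensities were used as log2(signal + 6.07), the pseudocount being the table's 20th percentile, so fold changes of weak signals are understated. Fold changes between times come from the mean log2 values, not from the mean signals. A probe set was tested if it reached the 40th percentile of the array in question on 2 or more arrays, which 14756 did (64.9%). Limma 3.58.1, run in R 4.3.3, fitted 1 mean for each time to the 8 arrays together (lmFit, eBayes with trend; 4 residual degrees of freedom; two-sided; Benjamini-Hochberg over all tested probe sets). The step was tested on simulated data. Precision is limited by 2 arrays per time: the median SE was 0.19.

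Deviations of same-numbered arrays from their time's mean correlated over all 6 pairs of times, with r from 0.16 to 0.36 across probe sets. The replicate numbers, which come from the titles, were therefore also fitted as a block. The labels do not say what these numbers stand for, and the pairing was read from these same data. The main fit has no block, and the blocked values are given where they change a call in a comparison the text reports.

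The text names PWD, DPE1 and ATSPS4F, relatives, list genes that passed against control, the 3 genes most alike in pattern to each, and others of the lists by group. Members and lists were chosen with earlier results of these data known; GI and COR27 were chosen after their values were seen. Raffinose synthesis genes were listed, but 0 of 6 were named; likewise 0 of 5 flower and 0 of 5 seed markers. Alternatives were the pseudocount, filter, normalization, variance trend, replicate block, times in the fit and each array left out.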

Additional observations from a re-analysis of the deposited data

How the results depend on the processing

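PWD, DPE1 and ATSPS4F gave 18 results, and 12 of the 303 values under alternatives passed the threshold: 7 with the replicate block, 1 with an array left out and 4 under other settings. With the replicate block the log2 change was 0.71 for PWD and -0.77 for ATSPS4F at 7 d against control, -0.80 for DPE1 at 24 h against control, and 0.77 for PWD and -0.55 for ATSPS4F at 7 d against 24 h, with F test adjusted p = 0.0262 for PWD and 0.0111 for ATSPS4F. PWD at 7 d against 24 h also passed with those times alone (0.77, limma adjusted p = 0.0363). ATSPS4F at 7 d against control passed with the 60th percentile filter (-0.77), quantile normalization (-0.81) and median centring (-0.79). Median centring turned PWD at 24 h against control to 0.028.

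Leaving out 1 array at a time moved the log2 changes widely. At 1 h against control the ranges were -0.79 to 0.28 for PWD, -0.80 to 0.37 for DPE1 and -0.34 to 0.13 for ATSPS4F. At 24 h against control they were -0.55 to 0.42 for PWD and -0.48 to 0.053 for ATSPS4F, and -1.21 to -0.39 for DPE1, whose sign held. At 7 d against control they were 0.22 to 1.19 for PWD, -0.51 to 0.31 for DPE1 and -1.004 to -0.54 for ATSPS4F. At 24 h against 1 h they were -0.34 to 0.72, -1.16 to 0.0031 and -0.38 to 0.16 for PWD, DPE1 and ATSPS4F. At 7 d against 24 h they were 0.59 to 0.95 for PWD, 0.33 to 1.06 for DPE1 and -0.82 to -0.29 for ATSPS4F, the ends for each being without 24 h replicate 1 or 2. The ends of each range lay at opposite replicate numbers.

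Of the 14 tested pathway genes, PWD, DPE1 and ATSPS4F included, the replicate block called 4 at 24 h and 7 at 7 d against control and 5 at 7 d against 24 h, against 2, 4 and 0 without it. The share of all probe sets called was higher with the block too, at 33.7%, 22.3% and 16.8%, against 26.2%, 15.9% and 8.53%. For 7 d against 24 h, median centring called 1 and the times alone 2. Over all 14756 tested probe sets, median centring called 1431 and the times alone 906. With neither change and without the block it was 1259 (8.53%). Calls of TMT2, AT1G62660 and SBE2.2 held under every alternative run, and that of AT2G35840 did not.

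Over all probe sets, the lowest counts of calls with 1 array left out were 37 at 1 h, 1948 at 24 h and 781 at 7 d against control, 1967 at 24 h against 1 h and 236 at 7 d against 24 h. With all arrays the counts were 134, 3873, 2342, 3913 and 1259. The block gave 224 at 1 h and 2481 at 7 d against 24 h, where no filter gave 764 and no variance trend 811, and the times alone gave 1365 at 7 d against control. Median centring moved the share of calls that were higher to 54.5% at 24 h against control (42.3% without it), 57.8% at 24 h against 1 h (43.6%) and 28.0% at 7 d against 24 h (50.6%, or 36.1% with the times alone and 38.8% without 7 d replicate 2). The causes were not tested.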
